A study of Mus musculus with 9 samples.

Results

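The kinases of the MAP kinase cascade were analysed in mouse bone marrow-derived macrophages (BMDMs). The members were the genes of the deposited table whose symbol is Mapk, Map2k, Map3k or Map4k followed by a number, taking for each symbol the entry with the highest mean. This gave 43 of the 55335 genes in the table, of which 13 were Mapk, 7 Map2k, 18 Map3k and 5 Map4k genes.

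A MAP kinase cascade passes a signal through kinases that phosphorylate one another in order. MAP4Ks and other upstream inputs activate MAP3Ks, MAP3Ks activate MAP2Ks, and MAP2Ks activate the MAP kinases themselves, which fall into the ERK, JNK, p38 and ERK5 families. In macrophages, LPS bound by TLR4 switches on the MAP3Ks TAK1 and TPL2, and through them ERK, JNK and p38, which control inflammatory genes. This control acts largely on phosphorylation of the proteins, which RNA sequencing does not measure.

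The study asked how AnxA5, human recombinant annexin A5, alters gene expression in BMDMs that LPS and IFN-γ drive to the inflammatory state. All 9 libraries came from BMDMs of WT genotype, grown with M-CSF from marrow of C57BL/6 mice aged 4 to 6 weeks, and the BMDMs were collected at 6 h. The M+AnxA5 group (n = 3) received LPS, IFN-γ and AnxA5, the Model group (n = 3) received LPS and IFN-γ, and the Control group (n = 3) received neither. Whether the 3 libraries of a group stem from different animals or culture dishes is not given in the sources used here, and p-values therefore speak of the spread among libraries alone, which may be technical.

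Levels are in FPKM, fragments divided by transcript length and by the number mapped in each library, so that genes can be compared per length. The depth, estimated from a step in the values, was between 25.9M and 36.1M fragments per library (M for mega). On that estimate a single fragment counts for 0.0277 to 0.0386 FPKM in a gene of 1 kb. The step was sought only within a preset range, which largely fixes these values. Only 25.8% to 28% of low values lay within 3% of a step, so they are no measured depth. All 10 macrophage markers were expressed, and their summed level was 7262 to 8162 FPKM in M+AnxA5, 7967 to 8882 FPKM in Model and 13812 to 14853 FPKM in Control. Lyz2 made up most of that sum, at 5340 to 6189 FPKM in M+AnxA5, 6045 to 6944 FPKM in Model and 11464 to 12608 FPKM in Control. The macrophage markers did not move as one. Adgre1, Fcgr1, Mertk and Cd14 were higher in every stimulated library than in any Control library, and Lyz2, Cd68, Csf1r, Fcgr3 and Itgam were lower. Neutrophil markers summed to 260 to 271 FPKM in M+AnxA5, 227 to 304 FPKM in Model and 191 to 261 FPKM in Control. S100a8 and S100a9 made up most of that sum. Mpo, Elane and Ltf were lower in every stimulated library than in any Control library, and Camp was higher. Of 5 dendritic cell markers, 3 stayed under 1 FPKM in every library. The dendritic sum was 11.5 to 13.1 FPKM in M+AnxA5, 12.8 to 14.5 FPKM in Model and 0.31 to 0.54 FPKM in Control. Fibroblast or stroma markers summed to 62.6 to 111 FPKM in M+AnxA5, 72.8 to 111 FPKM in Model and 95.1 to 157 FPKM in Control. Mast cell or basophil markers summed to 4.32 to 5.12 FPKM in M+AnxA5, 2.98 to 4.81 FPKM in Model and 0.909 to 1.34 FPKM in Control. Endothelial markers summed to 9.37 to 11.1 FPKM in M+AnxA5, 6.15 to 7.42 FPKM in Model and 6.09 to 6.76 FPKM in Control. Of these, Kdr was higher (6.00 to 6.88 FPKM in M+AnxA5, 3.47 to 3.87 FPKM in Model, 1.13 to 1.21 FPKM in Control). Vwf was lower in every stimulated library than in any Control library. T cell, B cell, NK cell and erythroid sums were at most 2.52 FPKM. Ribosomal entries took 0.53% to 7.47% of the summed FPKM, with the library numbered 2 highest in each group. The part of the marker differences in the results was not tested. Fits without the ribosomal entries, and without the 3 libraries numbered 2, are among the alternatives used below. In bulk RNA, a change in the number of cells of a type and a change of single marker genes per cell cannot be told apart.

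Promoter sequences are given for a pair of members that rose in Model (Map2k1, Mapk9) and for Map3k7, the TLR4-route MAP3K that fell, because these genes share a cascade and moved apart. Each is the RefSeq window (GRCm38.p6) of 300 bases, with 250 bases before and 50 after the annotated start, 5′ to 3′ on the gene's strand. Capitals mark a match to any of the motifs searched on both strands, which were kappa-B (by name), GAS (TTCNNNGAA), IRF (GAAANNGAA) and AP-1 (TGANTCA). Map2k1 lies at chr9:64253556-64253855 on the minus strand, Map3k7 at chr4:31963857-31964156 on the plus strand and Mapk9 at chr11:49846501-49846800 on the plus strand.
Map2k1: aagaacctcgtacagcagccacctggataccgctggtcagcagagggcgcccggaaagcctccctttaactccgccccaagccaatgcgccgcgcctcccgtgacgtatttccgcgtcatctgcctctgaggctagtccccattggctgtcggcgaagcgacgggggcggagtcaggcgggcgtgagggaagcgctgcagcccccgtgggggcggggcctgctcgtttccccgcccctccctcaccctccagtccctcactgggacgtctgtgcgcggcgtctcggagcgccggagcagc
Map3k7: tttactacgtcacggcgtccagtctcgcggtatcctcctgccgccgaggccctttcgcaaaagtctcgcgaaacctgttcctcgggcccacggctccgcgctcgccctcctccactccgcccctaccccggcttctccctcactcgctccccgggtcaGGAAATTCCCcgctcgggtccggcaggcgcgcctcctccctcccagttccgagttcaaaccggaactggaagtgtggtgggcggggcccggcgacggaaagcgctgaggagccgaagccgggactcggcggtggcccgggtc
Mapk9: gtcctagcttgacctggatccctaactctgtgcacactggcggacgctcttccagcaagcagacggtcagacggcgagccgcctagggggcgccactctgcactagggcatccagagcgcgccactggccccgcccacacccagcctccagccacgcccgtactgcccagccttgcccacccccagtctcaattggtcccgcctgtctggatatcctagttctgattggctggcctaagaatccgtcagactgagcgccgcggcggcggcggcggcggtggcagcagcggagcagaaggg

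The Map3k7 window held 1 kappa-B match, from -92 to -83 relative to the start, and the windows of Map2k1 and Mapk9 held no match to any of the 4 motifs. The promoter table held 34 of the 43 members, with 46 windows, against 32851 windows in all. A kappa-B match was in 5 of the 46 member windows (10.9%) and in 8.46% of all windows. Overlapping Mapk7 windows hold the same kappa-B site and are each counted among the 5. A GAS match was in 2 member windows (4.35%) and in 8.3% of all windows. An IRF match was in 3 (6.52%) against 8.56% of all, and an AP-1 match in 3 (6.52%) against 7.81% of all. These matches describe letters only and say nothing about binding of a factor.

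Of the 43 members, 32 reached 1 FPKM in 3 or more libraries and were tested. They were 7 Mapk, 6 Map2k, 14 Map3k and 5 Map4k genes. Map3k20, Map3k9 and Map3k15 passed that filter only through the Control libraries, so their lower level in the other groups is partly fixed by the filter. The 11 untested members were Mapk4, Mapk10, Mapk11, Mapk12, Mapk13, Mapk15, Map2k6, Map3k12, Map3k13, Map3k19 and Map3k21. Mapk10, which encodes the JNK3 of neurons, was listed at 0 in every library. The p38 genes other than Mapk14 were low, with Mapk11 at 0.547 ± 0.139 FPKM in M+AnxA5, 0.591 ± 0.0747 FPKM in Model and 0.452 ± 0.187 FPKM in Control (SD, n = 3 each). Map2k6, which encodes the p38 activator MKK6, averaged 0.0429 ± 0.0495 FPKM in M+AnxA5, 0.0476 ± 0.0138 FPKM in Model and 0.430 ± 0.123 FPKM in Control. Map3k12, which encodes DLK, averaged 0.316 ± 0.0512 FPKM in M+AnxA5, 0.247 ± 0.030 FPKM in Model and 1.13 ± 0.172 FPKM in Control. With no filter on low values, Map3k12 (log2 fold change -0.77, adjusted p = 5.55e-05, limma) and Map2k6 (-0.44, adjusted p = 0.000588, limma) were lower in Model than in Control. None of the other 8 untested members that could be fitted passed then.

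**Figure D1:**
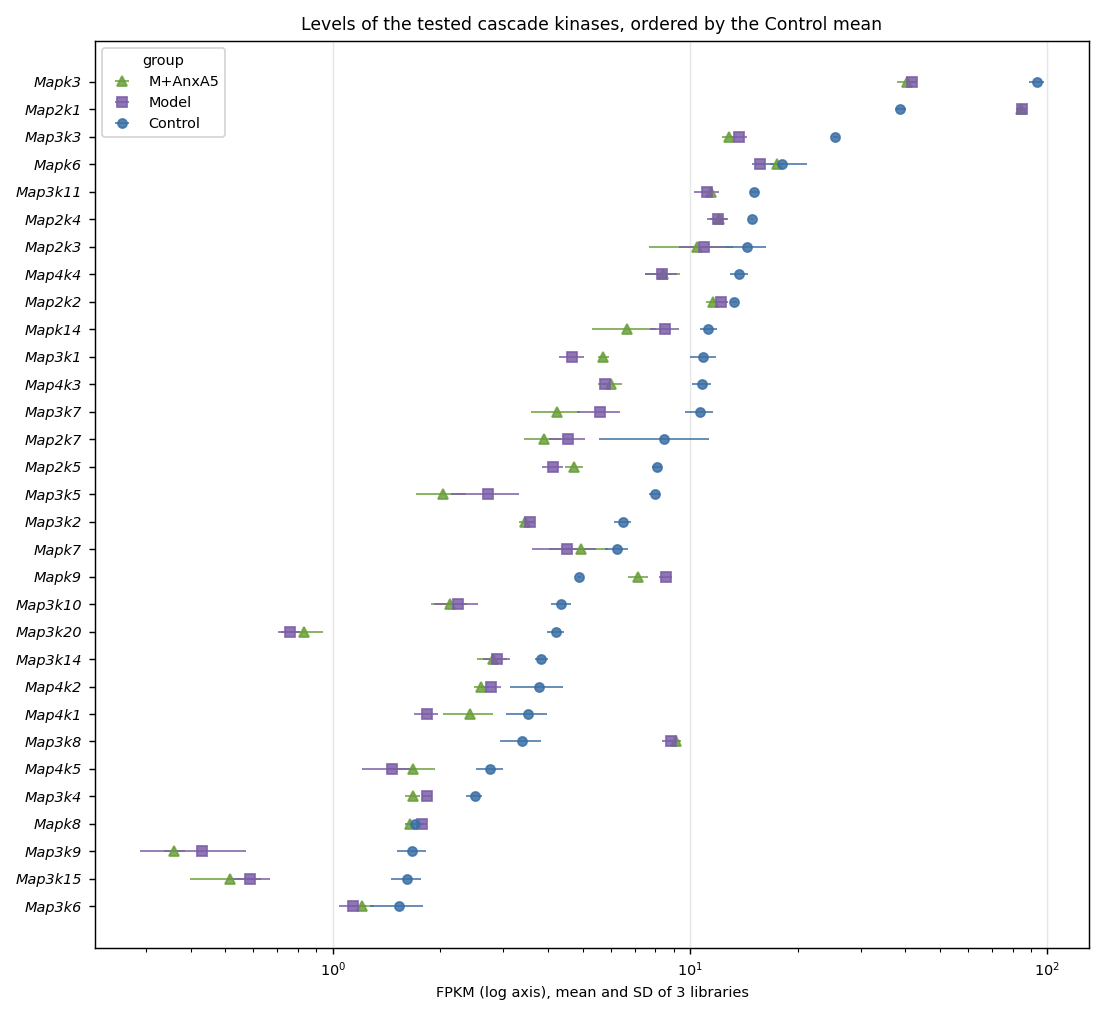
Level of 31 of the tested kinases in FPKM on a log axis, with points for the mean and lines for the SD of 3 libraries in M+AnxA5 (triangles), Model (squares) and Control (circles), ordered by the Control mean. Map2k1, Map3k8 and Mapk9 lie to the right of their Control point in both stimulated groups, Mapk8 shows no such gap, and most others lie to the left.

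Map2k1 and Mapk3 had the highest levels of the members in every group. In Model, Map2k1 (84.7 ± 2.85 FPKM) had the highest mean and Mapk3 (41.9 ± 0.885 FPKM) the next, and in M+AnxA5 the order was likewise Map2k1 (84.2 ± 1.14 FPKM) and Mapk3 (40.4 ± 2.39 FPKM). In Control, Mapk3 (93.5 ± 4.47 FPKM) stood above Map2k1 (38.8 ± 1.32 FPKM).

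Between Model and Control, 3 of the 32 tested kinases rose (9.38%) and 24 fell (75%), against 16.5% of all 11657 genes tested that rose and 60.3% that fell. A gene was called where its fold change on the log2(FPKM + 1) scale was over 1.2 and its adjusted p under 0.05 in limma with Benjamini-Hochberg adjustment over all genes tested. This scale understates the change of low genes. The median log2 fold change was -0.60 over the members and -0.45 over all genes tested, so the members are read against a table in which most genes were lower. Of the 24 members that fell, 17 lay below the median of all genes and 7 above it. The 17 include Map3k20, Map3k9 and Map3k15, whose fall is partly fixed by the filter. With upper quartile scaling the median of all genes was -0.24 and 17 members fell, and with quantile normalization it was -0.10 and 13 members fell. Lower calls made up 78.5% of all calls as tested, 67.8% with upper quartile scaling and 58.8% with quantile normalization. In every one of the alternatives that tested the gene, 16 members kept their call, 3 higher and 13 lower. Map3k20 and Map3k9 are among the 13.

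**Figure D2:**
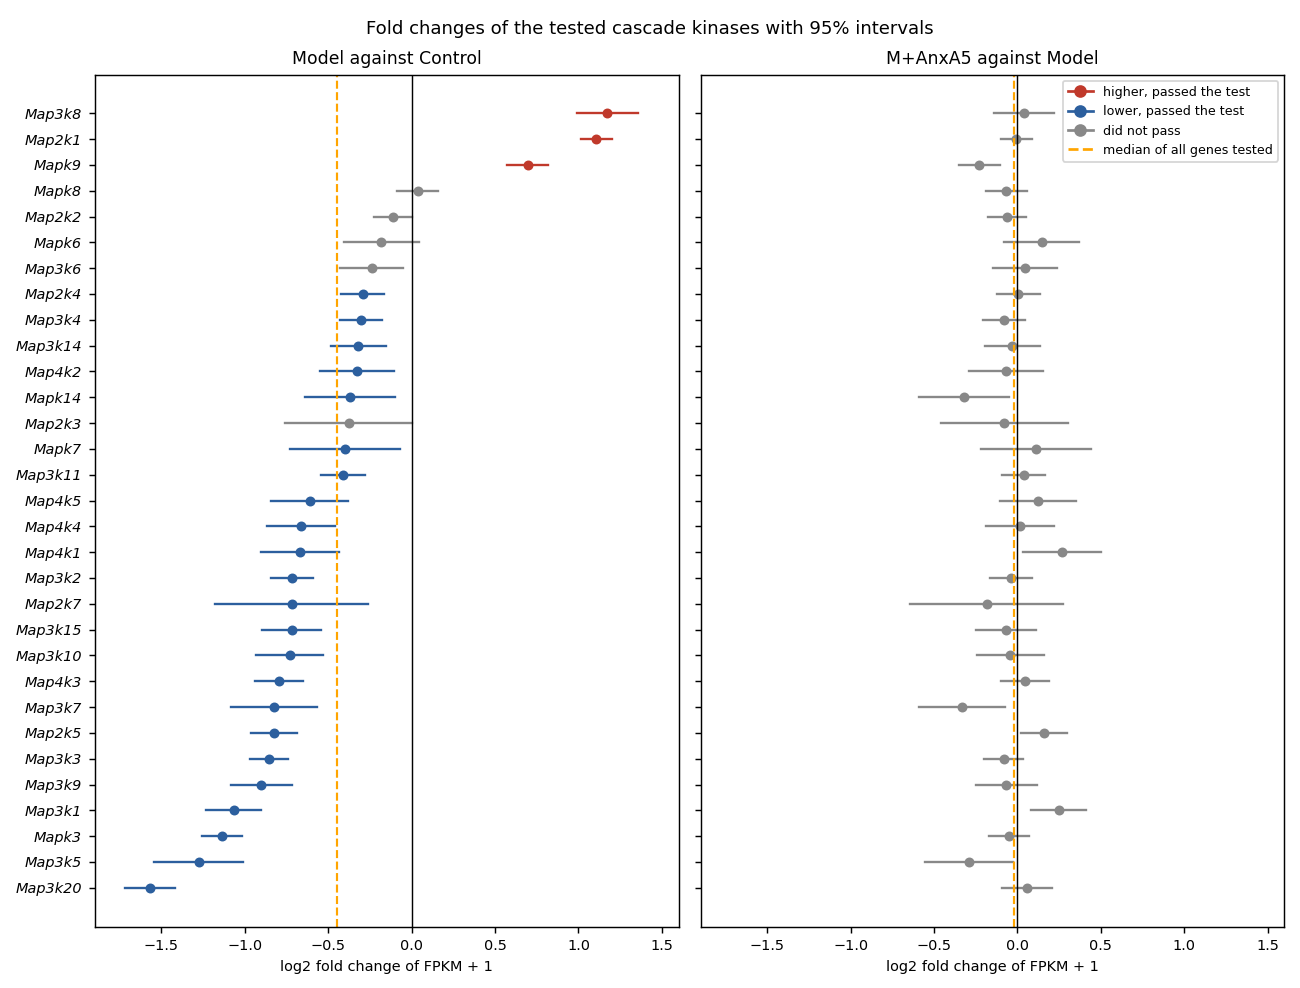
Log2 fold change on the log2(FPKM + 1) scale of 31 of the tested kinases, with points for the estimate and lines for the 95% interval of the limma fit, in Model against Control (left) and M+AnxA5 against Model (right), with the dashed line at the median of all genes tested. On the left, 3 of the kinases drawn were called higher and 23 lower, around a median of all genes of -0.45, and on the right no kinase was called.

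The members that rose in Model were 1 MAP3K, 1 MAP2K and 1 MAP kinase. Map3k8 encodes TPL2, the MAP3K that activates the ERK branch after TLR4 stimulation. Its level was 8.78, 9.12 and 9.45 FPKM in M+AnxA5, 8.74, 9.44 and 8.39 FPKM in Model, and 3.77, 2.89 and 3.48 FPKM in Control. Every stimulated library was above every Control library, and M+AnxA5 and Model overlapped. The log2 fold change of Map3k8 in Model against Control was 1.17 ± 0.08 (SE, adjusted p = 9.75e-07, limma). With AnxA5 it was 0.04 ± 0.08 against Model (adjusted p = 0.862).

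Map2k1 encodes MEK1, a direct activator of the ERK family (GRCm38 chr9:64185770-64253631, minus strand). Its level was 85.5, 83.9 and 83.3 FPKM in M+AnxA5, 82.7, 83.4 and 88.0 FPKM in Model, and 37.6, 40.2 and 38.7 FPKM in Control. The stimulated libraries were all far above Control and overlapped each other. Its log2 fold change in Model against Control was 1.11 ± 0.04 (SE, adjusted p = 1.76e-08, limma), the lowest adjusted p of the members. The difference between M+AnxA5 and Model was -0.01 ± 0.04, with a 95% interval of -0.10 to 0.09 (adjusted p = 0.953).

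Mapk9 encodes JNK2, one of the JNKs that phosphorylate c-Jun (chr11:49846751-49886421, plus strand). Its level was 7.12, 7.63 and 6.73 FPKM in M+AnxA5, 8.67, 8.16 and 8.82 FPKM in Model, and 4.89, 4.85 and 4.95 FPKM in Control. The libraries of the 3 groups did not overlap, with M+AnxA5 between Model and Control. The log2 fold change of Mapk9 was 0.70 ± 0.05 in Model against Control (SE, adjusted p = 2.67e-06, limma) and -0.23 ± 0.05 in M+AnxA5 against Model (adjusted p = 0.0689), which did not pass. Mapk8, which encodes JNK1, had 1.62, 1.67 and 1.65 FPKM in M+AnxA5, 1.72, 1.75 and 1.85 FPKM in Model, and 1.77, 1.75 and 1.58 FPKM in Control. Its Model and Control libraries overlapped, at a log2 fold change of 0.04 ± 0.05 (adjusted p = 0.538), but with quantile normalization it was 0.50 and passed (adjusted p = 3.25e-05).

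**Figure D3:**
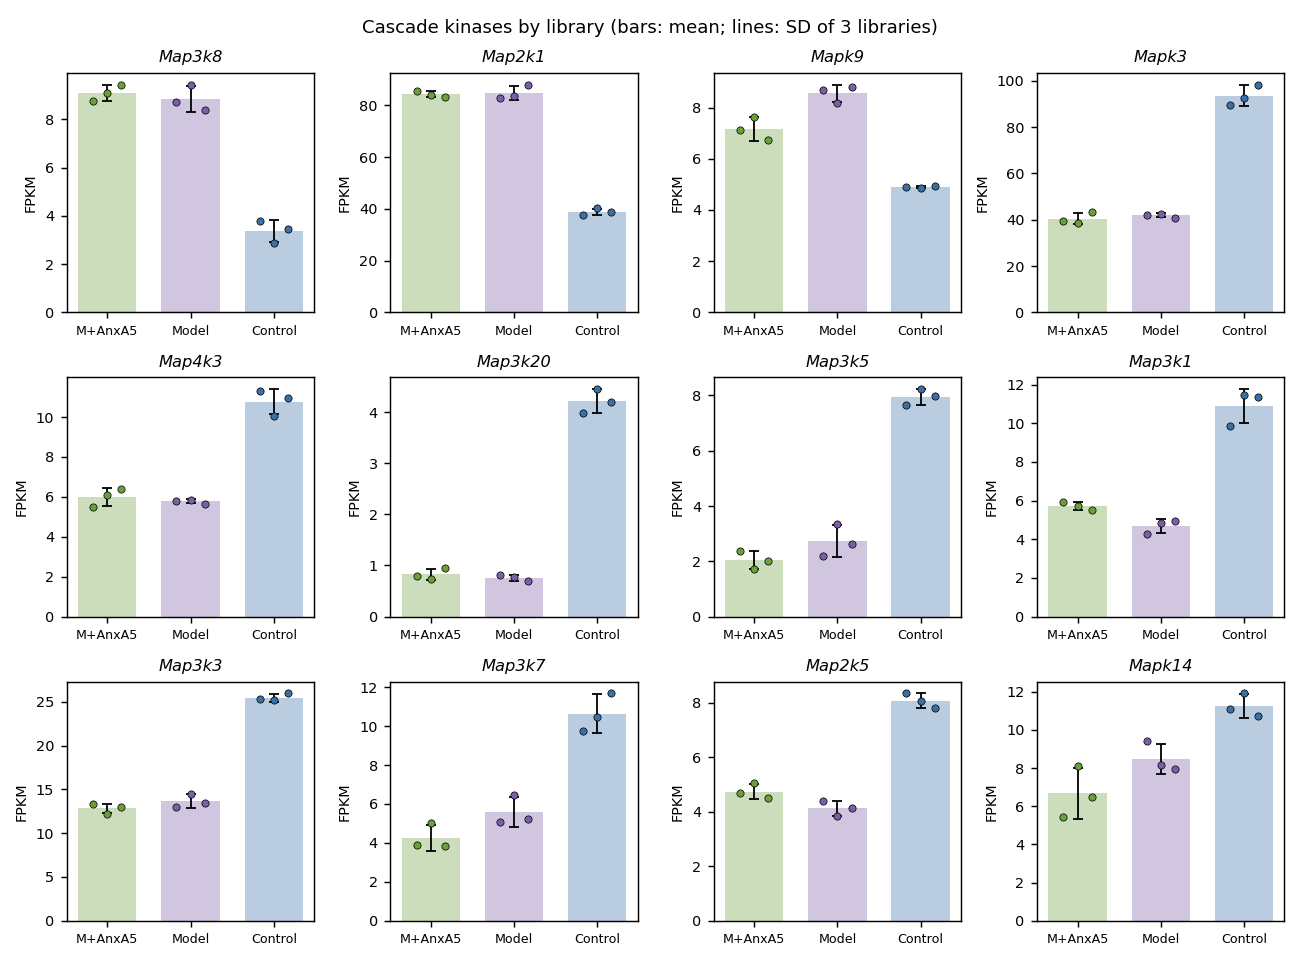
FPKM of 12 cascade kinases in each library, with points for libraries, bars for the mean and lines for the SD of 3 libraries, each axis starting at 0, in M+AnxA5, Model and Control. Map3k8, Map2k1 and Mapk9 were higher in both stimulated groups than in Control and the other 9 lower, with Mapk9 at 7.16 FPKM in M+AnxA5, 8.55 FPKM in Model and 4.89 FPKM in Control.

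Mapk3 moved opposite to Map2k1. It encodes ERK1, a MAP kinase that MEK1 activates (chr7:126759601-126765819, plus strand). It had 39.3, 38.7 and 43.1 FPKM in M+AnxA5, 42.2, 42.5 and 40.9 FPKM in Model, and 89.5, 92.7 and 98.3 FPKM in Control. No stimulated library reached the Control range, and the log2 fold change in Model against Control was -1.14 ± 0.05 (SE, adjusted p = 8.13e-08, limma). Map2k2, which encodes MEK2, the other ERK activator, had 12.2, 11.4 and 11.2 FPKM in M+AnxA5, 12.6, 11.5 and 12.5 FPKM in Model, and 13.5, 13.2 and 13.2 FPKM in Control. Its Model libraries were all below Control, but the difference of -0.11 ± 0.05 did not pass (adjusted p = 0.0584).

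The ratio of Map2k1 to Map2k2 FPKM was 7.26 ± 0.227 in M+AnxA5, 6.95 ± 0.341 in Model and 2.92 ± 0.140 in Control (SD, n = 3 each). Map2k1 made up 66.4 ± 1.9% of the summed Map2k FPKM in M+AnxA5, 65.9 ± 1.14% in Model and 39.5 ± 2.60% in Control. The Map2k1 to Mapk3 ratio was 2.09 ± 0.138 in M+AnxA5, 2.02 ± 0.111 in Model and 0.416 ± 0.0204 in Control. Both stimulated groups thus held more Map2k1 than Mapk3 RNA per length, and Control the opposite. A constant scaling factor of a library leaves such ratios as they are, and no test was run on them.

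Of the JNK and p38 activators, Map2k4 fell in Model, Map2k7 fell with wide spread, and Map2k3 did not pass. Map2k4 encodes MKK4 and had 12.8, 11.7 and 11.7 FPKM in M+AnxA5, 11.2, 12.0 and 12.8 FPKM in Model, and 14.8, 14.8 and 15.0 FPKM in Control. Its log2 fold change in Model against Control was -0.29 ± 0.06 (SE, adjusted p = 0.00104, limma), and without Model library 1 it was -0.25 and under the fold required. The call of Map2k4 was also lost with TPM, upper quartile and quantile scaling. Map2k7 encodes MKK7 and had 4.33, 3.94 and 3.40 FPKM in M+AnxA5, 4.25, 4.25 and 5.17 FPKM in Model, and 11.1, 5.43 and 8.72 FPKM in Control. The Control libraries differed among themselves by more than the stimulated ones, and the log2 fold change was -0.72 ± 0.20 (adjusted p = 0.00873), which was lost with quantile normalization (adjusted p = 0.17). The values of Map2k7 are uncertain because of that Control spread. A second entry under this symbol, at most at 0.349 FPKM, was not used. Map2k3 encodes MKK3, a p38 activator, and had 13.6, 8.62 and 9.07 FPKM in M+AnxA5, 12.8, 9.73 and 10.3 FPKM in Model, and 16.5, 13.9 and 13.0 FPKM in Control. Library 1 was highest in each group, and the difference of -0.38 ± 0.17 in Model against Control did not pass (adjusted p = 0.0626). It passed without M+AnxA5 library 1 (adjusted p = 0.0146), which enters only through the shared spread, without Model library 1 (adjusted p = 0.0347) and with a replicate block (adjusted p = 0.0028).

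Mapk14, which encodes p38α, had 5.44, 8.12 and 6.46 FPKM in M+AnxA5, 9.40, 8.16 and 7.94 FPKM in Model, and 11.1, 11.9 and 10.7 FPKM in Control. Both stimulated groups lay below Control and overlapped each other. Its log2 fold change in Model against Control was -0.37 ± 0.12 (SE, adjusted p = 0.0173, limma), and the call was lost without Model library 2 (adjusted p = 0.0507), Model library 3 (adjusted p = 0.0578) or Control library 2 (adjusted p = 0.0563), and with upper quartile or quantile scaling. The summed p38 level was 7.51 ± 1.22 FPKM in M+AnxA5, 9.48 ± 0.684 FPKM in Model and 12.0 ± 0.910 FPKM in Control. The summed JNK level was higher in both stimulated groups than in Control, at 8.80 ± 0.466 FPKM in M+AnxA5, 10.3 ± 0.384 FPKM in Model and 6.60 ± 0.0628 FPKM in Control.

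In the MAP3K tier, 12 of 14 tested genes were lower in Model (85.7%, against 60.3% of all genes tested), Map3k8 was higher and Map3k6 was not called, although with quantile normalization Map3k4 and Map3k14 turned slightly positive. The 12 include Map3k20, Map3k9 and Map3k15, which passed the filter only through Control. Map3k7 encodes TAK1, which relays TLR4 signals to the JNK, p38 and NF-κB branches. It had 3.88, 5.02 and 3.84 FPKM in M+AnxA5, 5.06, 6.47 and 5.24 FPKM in Model, and 9.75, 10.5 and 11.7 FPKM in Control. The groups did not overlap, with M+AnxA5 lowest. The log2 fold change of Map3k7 was -0.82 ± 0.11 in Model against Control (SE, adjusted p = 0.000117, limma) and -0.33 ± 0.11 in M+AnxA5 against Model (adjusted p = 0.176). The ratio of Map3k8 to Map3k7 FPKM was 2.18 ± 0.330 in M+AnxA5, 1.59 ± 0.134 in Model and 0.32 ± 0.0587 in Control, and its groups did not overlap. Map3k8 made up 15.5 ± 0.576% of the summed Map3k FPKM in M+AnxA5, 14.7 ± 0.305% in Model and 3.36 ± 0.503% in Control.

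Map3k20, which encodes ZAK, a sensor of ribosome stress (chr2:72285637-72442610, plus strand), had the lowest log2 fold change of the tested members, but it passed the filter only through Control, where it is high, so its place and p are partly fixed by the filter. It had 0.788, 0.744 and 0.955 FPKM in M+AnxA5, 0.805, 0.768 and 0.699 FPKM in Model, and 3.98, 4.46 and 4.21 FPKM in Control. Control libraries were thus well apart from both stimulated groups, at a log2 fold change of -1.57 ± 0.07 in Model against Control (SE, adjusted p = 4.19e-08, limma). Map3k5 encodes ASK1, a kinase activated by oxidative stress (chr10:19934472-20142753, plus strand). It had 2.37, 1.73 and 2.01 FPKM in M+AnxA5, 2.20, 3.36 and 2.61 FPKM in Model, and 7.65, 8.22 and 7.99 FPKM in Control. The log2 fold change was -1.28 ± 0.12 in Model against Control (adjusted p = 7.21e-06), with no overlap of those groups. Of the related ASK genes, Map3k15, which passed the filter only through Control, fell by 0.72 on the log2 scale. Map3k6 was at -0.24 with an adjusted p of 0.0246, under the fold required. Map3k6 passed without Model library 2 (adjusted p = 0.0263, limma) or Control library 3 (adjusted p = 0.00475). It also passed with a pseudocount of 0.1 (-0.39, adjusted p = 0.0268), with TPM without ribosomal entries (-0.30, adjusted p = 0.0423) and with no fold threshold.

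Map3k1, Map3k3 and Map3k9 fell as well. Map3k1 encodes MEKK1, an activator of the JNK branch, and had 5.93, 5.72 and 5.52 FPKM in M+AnxA5, 4.25, 4.82 and 4.94 FPKM in Model, and 9.86, 11.4 and 11.4 FPKM in Control. The groups did not overlap, with M+AnxA5 between the others, and the log2 fold change in Model against Control was -1.07 ± 0.07 (SE, adjusted p = 9.6e-07, limma). Map3k3 encodes MEKK3, which acts on MEK5, and had 13.3, 12.3 and 12.9 FPKM in M+AnxA5, 13.0, 14.5 and 13.4 FPKM in Model, and 25.3, 25.2 and 26.0 FPKM in Control. Its Control libraries were close together and far above the rest, at -0.85 ± 0.05 in Model against Control (adjusted p = 4.2e-07). Map3k9, which encodes the mixed-lineage kinase MLK1, had 0.343, 0.388 and 0.350 FPKM in M+AnxA5, 0.323, 0.590 and 0.376 FPKM in Model, and 1.53, 1.64 and 1.83 FPKM in Control. At these low levels the log2 fold change was -0.90 ± 0.08 (adjusted p = 5.98e-06). Map3k9 passed the filter only through Control, so its fall and p are partly fixed by the filter. The other Map3k genes that fell in Model were Map3k2, Map3k4, Map3k10, Map3k11 and Map3k14, with log2 fold changes between -0.73 (Map3k10) and -0.30 (Map3k4). The calls of Map3k4, Map3k11 and Map3k14 were lost with upper quartile scaling and with quantile normalization.

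Of the ERK5 branch, Map2k5 fell in every alternative, and the call of Mapk7 was lost in 8 of 22. Map2k5 encodes MEK5, the activator of ERK5, and had 4.68, 5.04 and 4.49 FPKM in M+AnxA5, 4.41, 3.85 and 4.15 FPKM in Model, and 8.36, 8.08 and 7.82 FPKM in Control. All Control libraries stood above the stimulated ones, at -0.82 ± 0.06 in Model against Control (SE, adjusted p = 1.72e-06, limma). Mapk7, which encodes ERK5 itself, averaged 4.96 ± 0.930 FPKM in M+AnxA5, 4.53 ± 0.914 FPKM in Model and 6.24 ± 0.466 FPKM in Control (SD, n = 3 each). Its log2 fold change was -0.40 (adjusted p = 0.0287), and the call was lost without Model library 1 (adjusted p = 0.0959), Control library 1 (adjusted p = 0.0861) or Control library 3 (adjusted p = 0.0518), without the 3 libraries numbered 2 (adjusted p = 0.0537), with TPM (adjusted p = 0.0615), with no filter (adjusted p = 0.0678), and with upper quartile scaling and quantile normalization. Mapk6, which encodes the atypical kinase ERK3, averaged 17.5 ± 0.709 FPKM in M+AnxA5, 15.7 ± 0.297 FPKM in Model and 18.1 ± 3.15 FPKM in Control and did not pass (adjusted p = 0.114).

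All 5 Map4k genes fell in Model against Control, with log2 fold changes between -0.80 (Map4k3) and -0.33 (Map4k2), but only Map4k3 and Map4k4 passed in every alternative and Map4k2 turned positive with quantile normalization. Map4k2 also lost its call without Control library 2 (adjusted p = 0.0435, limma, under the fold required). The same held with upper quartile scaling (-0.13, adjusted p = 0.249) and without the 3 libraries numbered 2 (-0.25, adjusted p = 0.118). Map4k3, which encodes GLK, averaged 6.00 ± 0.469 FPKM in M+AnxA5, 5.77 ± 0.10 FPKM in Model and 10.8 ± 0.638 FPKM in Control. Map4k4, which encodes HGK, averaged 8.42 ± 0.930 FPKM in M+AnxA5, 8.33 ± 0.839 FPKM in Model and 13.7 ± 0.776 FPKM in Control. The other 3 were Map4k1, Map4k2 and Map4k5. By tier, 4 of 7 Mapk genes (57.1%), 3 of 6 Map2k genes (50%), 12 of 14 Map3k genes (85.7%) and 5 of 5 Map4k genes fell, against 60.3% of all genes tested, and 1 gene of each of the first 3 tiers rose.

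**Figure D4:**
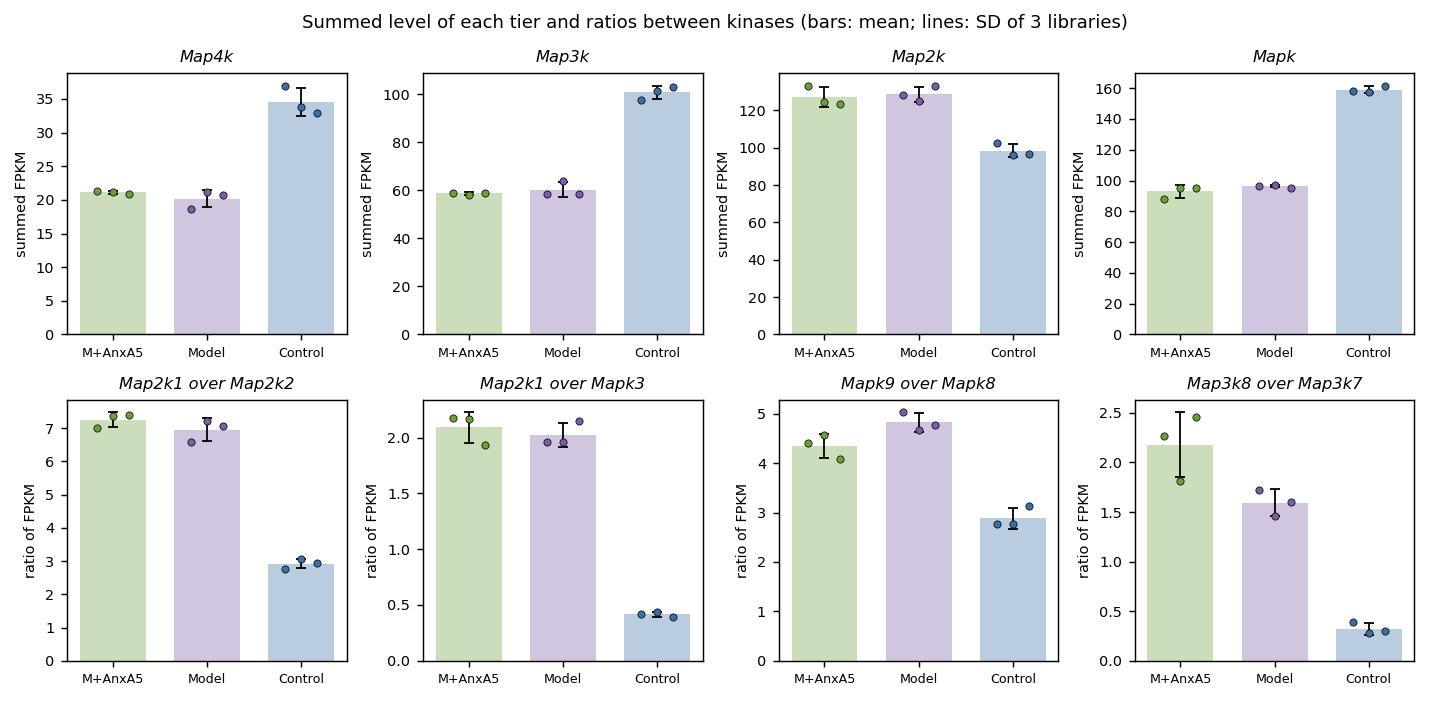
Summed FPKM of each tier (upper row) and ratios of FPKM between kinases (lower row) in each library, with points for libraries, bars for the mean and lines for the SD of 3 libraries, each axis starting at 0. The summed Map2k level was higher in M+AnxA5 (127.0 FPKM) and Model (128.6 FPKM) than in Control (98.4 FPKM), and the other 3 tiers were lower in both stimulated groups. Map2k1 was the only tested Map2k gene called higher against Control.

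The summed level of the members was 299.7 ± 1.72 FPKM in M+AnxA5, 305.5 ± 3.11 FPKM in Model and 392.8 ± 3.48 FPKM in Control (SD, n = 3 each). The Map4k sum was 21.1 ± 0.220 FPKM in M+AnxA5, 20.2 ± 1.29 FPKM in Model and 34.6 ± 2.13 FPKM in Control. The Map3k sum was 58.7 ± 0.555 FPKM in M+AnxA5, 60.4 ± 3.15 FPKM in Model and 100.9 ± 2.77 FPKM in Control. The Mapk sum was 92.9 ± 4.13 FPKM in M+AnxA5, 96.4 ± 0.922 FPKM in Model and 158.9 ± 2.31 FPKM in Control. The Map2k sum alone was higher in both stimulated groups, and Map2k1 was its largest part in every group. Of the 6 tested Map2k genes only Map2k1 was called higher, and the other 5 were at negative log2 fold changes against Control in both stimulated groups. No test was run on these sums.

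With AnxA5, none of the 32 tested kinases passed the test against Model, in limma as fitted or in any of the 22 alternatives. Over all genes tested, 1.95% rose and 0.815% fell in that comparison, so a count of 0 of 32 lies near the background. The median log2 fold change was -0.04 over the members and -0.02 over all genes. At an unadjusted p under 0.05 there were 7 members (21.9%), against 17% of all genes tested. For 19 members the 95% interval on the log2(FPKM + 1) scale lay within a 1.2-fold change either way, which is 0.26. For 13 it did not, so the data do not limit those 13 to changes under that size. This scale understates the change of low genes, so the intervals of members such as Map3k9 and Map3k15 do not bound their change in FPKM. Mapk9 had the lowest adjusted p (0.0689 as tested), and with only genes of a mean of at least 5 FPKM it was 0.0464 at a log2 fold change of -0.23, under the fold required.

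The 7 members with an unadjusted p under 0.05 were Mapk9 and Map3k7, described above, with Map3k1, Mapk14, Map2k5, Map4k1 and Map3k5. Map3k1 (0.25 ± 0.07, adjusted p = 0.118, limma), Map2k5 (0.16 ± 0.06, adjusted p = 0.223) and Map4k1 (0.27 ± 0.10, adjusted p = 0.223) were at positive log2 fold changes in M+AnxA5 against Model. Map4k1, which encodes HPK1, had 2.00, 2.75 and 2.50 FPKM in M+AnxA5, 1.71, 1.99 and 1.80 FPKM in Model, and 4.05, 3.16 and 3.34 FPKM in Control, without overlap of the groups. Mapk14 (-0.32 ± 0.12, adjusted p = 0.212) and Map3k5 (-0.29 ± 0.12, adjusted p = 0.252) were at negative ones, and their M+AnxA5 and Model libraries overlapped. None of these differences passed the adjusted test.

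Against Control, M+AnxA5 gave the same counts as Model did, with 3 of 32 members higher and 24 lower, against 16.4% of all genes higher and 61.1% lower. These comparisons share the Control libraries, so their likeness is partly built in. The members that rose were again Map3k8 (log2 fold change 1.21), Map2k1 (1.10) and Mapk9 (0.47). Map2k3 passed here as lower (-0.45, adjusted p = 0.0304, limma) and Mapk7 did not (adjusted p = 0.0907). The call of Map2k3 was lost in 9 of 22 alternatives. These were no filter (adjusted p = 0.0736), TPM (adjusted p = 0.0636), upper quartile scaling (adjusted p = 0.256), quantile normalization (adjusted p = 0.317) and the fit without the 3 libraries numbered 2 (adjusted p = 0.158). The other 4 were the fits without M+AnxA5 library 2 (adjusted p = 0.107) or 3 (adjusted p = 0.0998) and those without Control library 1 (adjusted p = 0.103) or 2 (adjusted p = 0.0535). That of Mapk7 was gained without M+AnxA5 library 2 (adjusted p = 0.0477) or Model library 1 (adjusted p = 0.0436).

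Of 61 other genes of the cascade, a list of RAF kinases, STE20-type kinases, partners, scaffolds, kinases downstream of MAP kinases and phosphatases, 53 were tested. In Model against Control 12 rose (22.6%) and 31 fell (58.5%), against 16.5% and 60.3% of all genes tested, so the share that fell lies near the background. The 31 include Ksr2 and Rps6ka5, which passed the filter only through Control, so their fall is partly fixed by the filter. Over the 53, the median log2 fold change was -0.52, against -0.45 over all genes. By lowest adjusted p, those that rose were led by Nfkb1, whose precursor p105 binds and stabilises TPL2, with 33.8, 30.1 and 31.1 FPKM in M+AnxA5, 36.2, 37.5 and 35.8 FPKM in Model, and 7.96, 8.45 and 8.85 FPKM in Control. Its log2 fold change in Model against Control was 1.99 ± 0.06 (SE, adjusted p = 2.9e-09, limma), in the same direction as that of Map3k8. Rps6ka4 (1.24, the kinase MSK2), Dusp1 (1.31), Mapkapk2 (0.62, the kinase MK2 downstream of p38), Dusp16 (0.76) and Gadd45b (1.74) followed in that order. Dusp1 and Dusp16 encode phosphatases that switch off MAP kinases, and of 11 tested phosphatases 6 rose (54.5%) and 5 fell (45.5%), against 16.5% and 60.3% of all genes tested. Of those 6, Ppm1b and Dusp10 were at a 1.21-fold change, just over the threshold. In M+AnxA5 against Control 4 of the 11 rose (36.4%) and 5 fell (45.5%), against 16.4% and 61.1% of all genes tested. The 6 lowest adjusted p among those that fell belonged to the STE20-type kinases Slk (-1.27), Stk10 (-1.41) and Pak1 (-1.19), and to Rps6ka1 (-1.25, the kinase RSK1), Mknk2 (-1.42, an eIF4E kinase) and Spag9 (-0.99, the JNK scaffold JIP4). Against Control, M+AnxA5 had 9 of the 53 other cascade genes higher (17%) and 32 lower (60.4%), near the 16.4% and 61.1% of all genes tested. Ksr2 and Rps6ka5 are again among the 32, with the same limit.

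With AnxA5, 2 of the 53 rose against Model (3.77%) and 0 fell, which lies near the 1.95% higher and 0.815% lower of all genes tested. Rps6ka2, which encodes RSK3, a kinase activated by ERK, had 2.21, 2.91 and 2.39 FPKM in M+AnxA5, 1.01, 1.01 and 1.16 FPKM in Model, and 2.33, 2.01 and 2.07 FPKM in Control. M+AnxA5 and Control overlapped, and Model lay below both, at a log2 fold change of 0.76 ± 0.08 in M+AnxA5 against Model (SE, adjusted p = 0.00296, limma) and -0.61 in Model against Control (adjusted p = 0.000112). Mink1, a STE20-type kinase close to MAP4K4, had 20.5, 21.7 and 21.3 FPKM in M+AnxA5, 15.0, 13.3 and 15.8 FPKM in Model, and 13.6, 12.4 and 12.7 FPKM in Control. Its M+AnxA5 libraries were above all others, at 0.50 ± 0.07 against Model (adjusted p = 0.00563). Without the 3 libraries numbered 2, neither passed, with Rps6ka2 at 0.67 (adjusted p = 0.0942) and Mink1 at 0.42 (adjusted p = 0.103). Stk10 (-0.24, adjusted p = 0.0381) and Rps6ka1 (-0.23, adjusted p = 0.0312) passed the p and not the fold. In the list 15 genes (28.3%) had an unadjusted p under 0.05, against 17% of all genes tested.

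**Figure D5:**
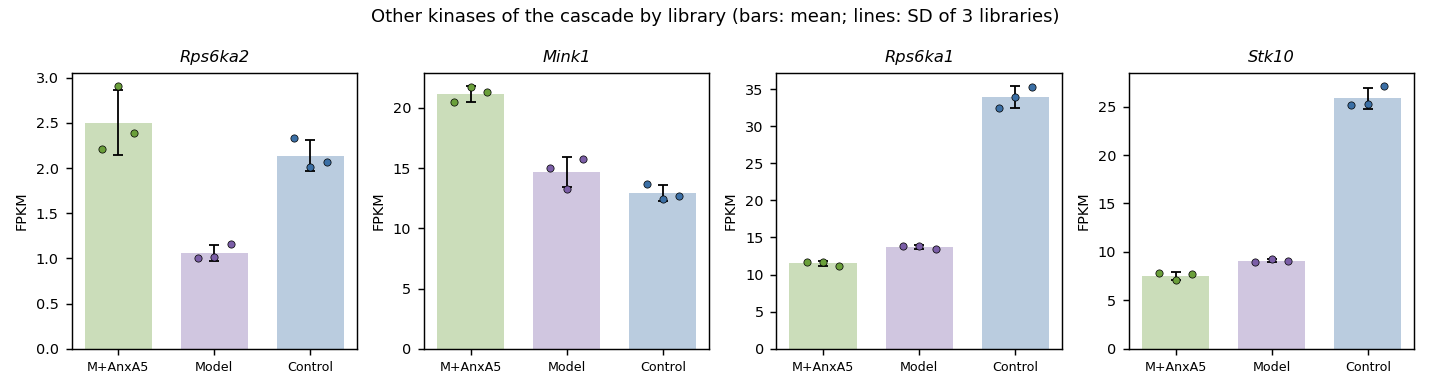
FPKM of 4 other kinases of the cascade in each library, with points for libraries, bars for the mean and lines for the SD of 3 libraries, each axis starting at 0, in M+AnxA5, Model and Control. Rps6ka2 averaged 2.50 FPKM in M+AnxA5, 1.06 FPKM in Model and 2.14 FPKM in Control, Mink1 was highest in M+AnxA5 (21.2 FPKM), and Rps6ka1 and Stk10 were lower in both stimulated groups.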

How the data were processed

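RNA-seq of BMDMs gave 9 libraries in 3 groups of 3, assigned from the sample titles. RNA was poly(A)-selected and libraries were strand-marked and paired-end. In the 1 table deposited, values were FPKM, made by the sequencing company for the authors, per gene and library. The submitters' processing notes name cutadapt 1.9, STAR, StringTie 2.1.6, DESeq2, edgeR and mm10, with no role or order. Whole fragments could not be recovered from the FPKM (25.8% to 28% of low values lay within 3% of a step), so no count test was run. The depth values came from a step sought within a preset range, which largely fixes them.

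Genes that reached 1 FPKM in 3 or more libraries entered a linear model in limma 3.58.1 (R 4.3.3) on log2(FPKM + 1), with 3 groups in 1 fit, no replicate block and a mean-variance trend. The fold threshold of 1.2 and the adjusted p threshold of 0.05 are those of the study's methods. Fold changes are given with SEs and levels with SDs. The steps were tested on simulated data. Within groups, libraries correlated at 0.985 to 0.992 and none were identical. Coordinates come from GENCODE M21 (GRCm38), which held 55154 of the 55335 gene IDs.

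The members and lists were chosen with earlier results of these data known. Full values are given for kinases of the TLR4 route, for up to 8 members with the highest and 8 with the lowest called log2 fold change between Model and Control, and for any called between M+AnxA5 and Model, and for Map4k1, which was chosen after its values were seen. Other cascade genes are named by lowest adjusted p, up to 6 a direction. Alternatives were another pseudocount (0.1), no filter and a stricter filter (mean of at least 5 FPKM), TPM with and without ribosomal entries, upper quartile and quantile scaling, no trend, robust fitting, 6 libraries in the fit, a replicate block, no fold threshold, and leaving out each library in turn or the 3 numbered 2. With a library left out, its group shares the spread of the others. Values of 1 member and of a marker are not reported here. The activation loops of the proteins were not analysed here.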

Additional observations from a re-analysis of the deposited data

How the results depend on the processing

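Calls of members between M+AnxA5 and Model did not change in any of the 22 alternatives, and the 3 higher members of both comparisons with Control kept their calls. The count of lower members in Model against Control was 24 as tested, 13 with a mean of at least 5 FPKM, where only 19 members were tested, and 13 with quantile normalization. In M+AnxA5 against Control it was 24 as tested, 13 with a mean of at least 5 FPKM and 15 with quantile normalization. Leaving out single libraries gave 22 to 25 in Model against Control. Among members called as tested or with quantile normalization, that setting turned some log2 fold changes positive. In Model against Control these were Map3k14 (0.13), Map3k4 (0.17, adjusted p = 0.0174, limma, under the fold required) and Map4k2 (0.12). In M+AnxA5 against Control they were Map3k14 (0.098), Map3k4 (0.086), Map4k1 (0.058), Map4k2 (0.054) and Mapk8 (0.43), which passed as higher (adjusted p = 9.43e-05). Members with no call also turned positive under a scaling. They were Map3k6 (up to 0.21), Map2k2 (0.14) and Mapk6 (0.062) in Model against Control. In M+AnxA5 against Control they were Map3k6 (0.26), Mapk6 (0.20), Mapk7 (0.12) and Map2k2 (0.079). The cause was not tested. The median of all genes in Model against Control was -0.56 with a pseudocount of 0.1, -0.32 with a mean of at least 5 FPKM and -0.04 with no filter. Over all genes in that comparison, quantile normalization gave 2946 higher and 4209 lower calls, against 1925 and 7024 as tested, and a mean of at least 5 FPKM gave 3049 lower calls. In M+AnxA5 against Control, quantile normalization gave 2903 higher and 4363 lower calls, against 1910 and 7121 as tested, and a mean of at least 5 FPKM gave 3132 lower calls. Other cascade genes higher in M+AnxA5 against Control were 9 as tested, 15 with upper quartile scaling and 17 with quantile normalization. Those lower in M+AnxA5 against Model were 0 as tested and up to 2 in the alternatives.

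Calls over all genes in M+AnxA5 against Model (227 higher and 95 lower) were fewer without M+AnxA5 library 2 (113 and 47), M+AnxA5 library 3 (86 and 35), Model library 2 (102 and 38) or Model library 3 (130 and 57). They were 8 and 3 without the 3 libraries numbered 2, and 120 and 47 with no filter. With the replicate number as a block they were 138 and 47, and 0 members passed. The block gave 25 lower and 3 higher members in Model against Control. Deviations of libraries with the same number correlated at 0.0156 to 0.206 and those with other numbers at -0.232 to 0.0993. The same-number correlations were small but all positive. Whether the numbers mark pairs was not tested, and the main fit took none. How far depth limits the low members was not tested. The estimate of 0.0277 to 0.0386 FPKM per fragment and kb is largely fixed by the preset range and cannot settle this. If it held, levels under 0.1 FPKM would rest on few fragments per kb.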
